A study of Saccharomyces cerevisiae with 40 samples.

Results

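The cytosolic ribosomal protein genes of Saccharomyces cerevisiae are described here by the binding events that ChIP-exo listed for them. The genes were chosen by name, as RPL or RPS followed by digits and an optional A or B, together with RPP0, RPP1A, RPP1B, RPP2A, and RPP2B. This gave 137 of the 7124 genes that the tables name, and the reference annotation calls the product of all 137 a ribosomal protein. Of these, 76 encode proteins of the large subunit, 56 proteins of the small subunit, and 5 proteins of the stalk. ChIP-exo maps where a transcription factor (TF) touches DNA by trimming the immunoprecipitated DNA with an exonuclease up to the cross-linked protein. The study mapped Ino2, Ino4, Hap1, Oaf1, and Pip2, which are 5 TFs that act on lipid genes, in chemostats under 4 conditions. There were 40 samples, 2 per TF and condition. The carbon source of the labels was 6% (w/v) glucose under nitrogen limitation (N-lim), 0.5% ethanol under ethanol limitation (Et-lim), 1% glucose under combined oxygen and glucose limitation (Ox,Glu-lim), and 0.75% glucose under glucose limitation (Glu-lim). For the Ox,Glu-lim medium the methods of the study give the same glucose level as for Glu-lim, which differs from the label, and add Tween 80 and ergosterol. Each strain carried 1 of the TFs with a C-terminal CBP-ProtA tag in the background CEN.PK 113-5D, and the reads were placed on the genome of another strain, S288C. All 40 samples came from tagged strains, so no level of an untagged strain stands beside these values. The tables give, for each gene, TF, and condition, the single highest event: its position, its log2 of signal over noise (S/N), a short sequence, and its distance from the start codon. An event is listed when its log2(S/N) is above 1, which is a signal over 2 times the noise, and the largest distance listed for any gene is 1199 bp. Duplicates were pooled in the tables and the sequencing depth is unknown, so no spread between replicates and no test can be given; differences below are differences between single values.

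Most ribosomal proteins are made in equal amounts for a ribosome, and in growing yeast the genes of ribosomal proteins are among the most strongly transcribed. Their promoters are known for Rap1, a general activator, and for Fhl1, Ifh1, and Sfp1, which act on them under control of the TOR pathway, the cell's nutrient sensor. Ino2 and Ino4 form a basic helix-loop-helix pair that activates phospholipid genes; Hap1 is a zinc cluster protein that responds to heme, and Oaf1 and Pip2 are zinc cluster proteins that activate fatty acid oxidation genes. Most ribosomal protein genes of this yeast exist as pairs of paralogs that encode the same or almost the same protein.

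With the conditions pooled, events of at least a pair of TFs fell within 20 bp of each other at 20 places upstream of 19 ribosomal protein genes. The TFs of a place were not always listed under the same condition: RPS14A had Ino2 at Glu-lim and Ino4 at Ox,Glu-lim. The share of all genes with such a place was not computed. The 8 genes with the highest log2(S/N) at such a place are shown by the 41 bases around the highest event, in the direction of the ribosomal protein gene, because all values above 4 came from 6 of these genes. Capitals mark the short sequence that the peak caller listed for an event there, on either strand.
RPL33B: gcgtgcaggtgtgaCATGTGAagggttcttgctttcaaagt
RPL6B: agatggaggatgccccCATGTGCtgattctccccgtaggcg
RPS3: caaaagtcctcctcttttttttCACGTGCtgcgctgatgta
RPL35B: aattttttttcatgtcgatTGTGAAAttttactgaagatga
RPL24B: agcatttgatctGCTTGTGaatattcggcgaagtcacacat
RPS26B: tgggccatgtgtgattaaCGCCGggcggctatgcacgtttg
RPL3: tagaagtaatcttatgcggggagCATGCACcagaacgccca
RPL2A: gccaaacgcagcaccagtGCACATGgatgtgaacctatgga
In the RefSeq sequence of the R64 build these are chrXV:779562-779602 (minus strand) for RPL33B, chrXII:1028518-1028558 (plus) for RPL6B, chrXIV:301784-301824 (plus) for RPS3, chrIV:217434-217474 (plus) for RPL35B, chrVII:788811-788851 (minus) for RPL24B, chrV:422767-422807 (plus) for RPS26B, chrXV:443877-443917 (plus) for RPL3, and chrVI:221574-221614 (minus) for RPL2A. The windows of RPL33B, RPL6B, RPL2A, and RPS26B hold CATGTG on 1 strand or the other, and that of RPS26B also holds CGGNNNTAA. The center lay 146, 176, and 177 bp upstream of the start codon for RPL35B, RPL2A, and RPL33B and 316 bp upstream for RPL6B. For the other 4 windows it lay farther away, at 789 bp for RPL3, 876 bp for RPS3, 1052 bp for RPL24B, and 1165 bp for RPS26B.

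At least 1 event was listed for 56 of the 137 ribosomal protein genes (40.9%), against 19.2% of all named genes. The other 81 had no event of any TF under any condition. Ino2 had events on 35 of the 137, or 25.5%, and on 11.7% of all genes. Ino4 had events on 28, or 20.4%, and on 9.45% of all genes. For Oaf1 the count was 16 ribosomal protein genes, or 11.7%, with 6.34% of all genes. Hap1 was listed on 6, or 4.38%, below its share of 6.64% of all genes. Pip2 was listed on 4, or 2.92%, near its share of 3.3% of all genes. Of the 56 genes, 28 had events of 1 TF, 24 of 2 TFs, 3 of 3 TFs, and 1, RPL15B, of 4 TFs. The same split was not computed for all listed genes. When just events with log2(S/N) above 2 were counted, 26 ribosomal protein genes (19%) had one, against 12.4% of all genes. When each event was counted for just the nearest of the genes that list it, 46 (33.6%) had one, against 15.3% of all genes. When events also listed for a divergent neighbor were left out, 22 of the 56 kept one, and the share of all genes was not computed in that way.

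The region between a ribosomal protein gene and the next coding sequence upstream was longer than at other genes, with a median of 634 bp, against 451 bp at the other protein-coding genes. Among genes with an upstream region over 600 bp, 48.8% of 80 ribosomal protein genes and 32.0% of 2052 other coding genes had an event. With 600 bp or less, 29.8% of 57 ribosomal protein genes and 13.9% of 3787 other coding genes had one. The share was therefore higher for the ribosomal protein genes in both classes of length. How far the length of the region or the level of transcription sets these shares was not tested.

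By condition, Ino2 was listed on 7 ribosomal protein genes (5.11%) at N-lim, against 1.87% of all genes. At Et-lim it was listed on 31 (22.6%), the highest count of any TF and condition, against 10.2% of all genes. The counts were 7 (5.11%) at Ox,Glu-lim, against 3.47% of all genes, and 19 (13.9%) at Glu-lim, against 8.84% of all genes. The conditions ranked Et-lim first and Glu-lim next for both the ribosomal protein genes and all genes. Of the 35 ribosomal protein genes of Ino2, 24 (68.6%) were listed at Et-lim or Glu-lim and at neither of the other conditions, close to the 66.1% of the 797 other genes of Ino2. Ino4 was listed on 6 (4.38%) at N-lim, against 2.33% of all genes, and on 6 (4.38%) at Et-lim, against 2.5% of all genes. It was listed on 17 (12.4%) at Ox,Glu-lim, against 6.82% of all genes, and on 23 (16.8%) at Glu-lim, against 7.5% of all genes. The condition with the most ribosomal protein genes was therefore Et-lim for Ino2 and Glu-lim for Ino4, and in all 8 sets the share exceeded that of all genes.

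For Hap1 the counts were 1 (0.73%) at N-lim, against 0.73% of all genes, and 2 (1.46%) at Et-lim, against 2.48% of all genes. They were 3 (2.19%) at Ox,Glu-lim, against 3.5% of all genes, and 2 (1.46%) at Glu-lim, against 5.67% of all genes. In no condition was the share for Hap1 above that of all genes. Oaf1 was listed on 7 (5.11%) at N-lim, against 2.3% of all genes, and on 7 (5.11%) at Et-lim, against 4.01% of all genes. It was listed on 6 (4.38%) at Ox,Glu-lim, against 2.33% of all genes, and on 7 (5.11%) at Glu-lim, against 3.44% of all genes. The count for Oaf1 hardly moved between conditions, and its share exceeded that of all genes in all 4. Pip2 was listed on 2 (1.46%) at N-lim, against 0.758% of all genes, and on 2 (1.46%) at Et-lim, against 1.59% of all genes. It was listed on 0 (0%) at Ox,Glu-lim, against 0.576% of all genes, and on 1 (0.73%) at Glu-lim, against 1.74% of all genes.

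**Figure D1:**
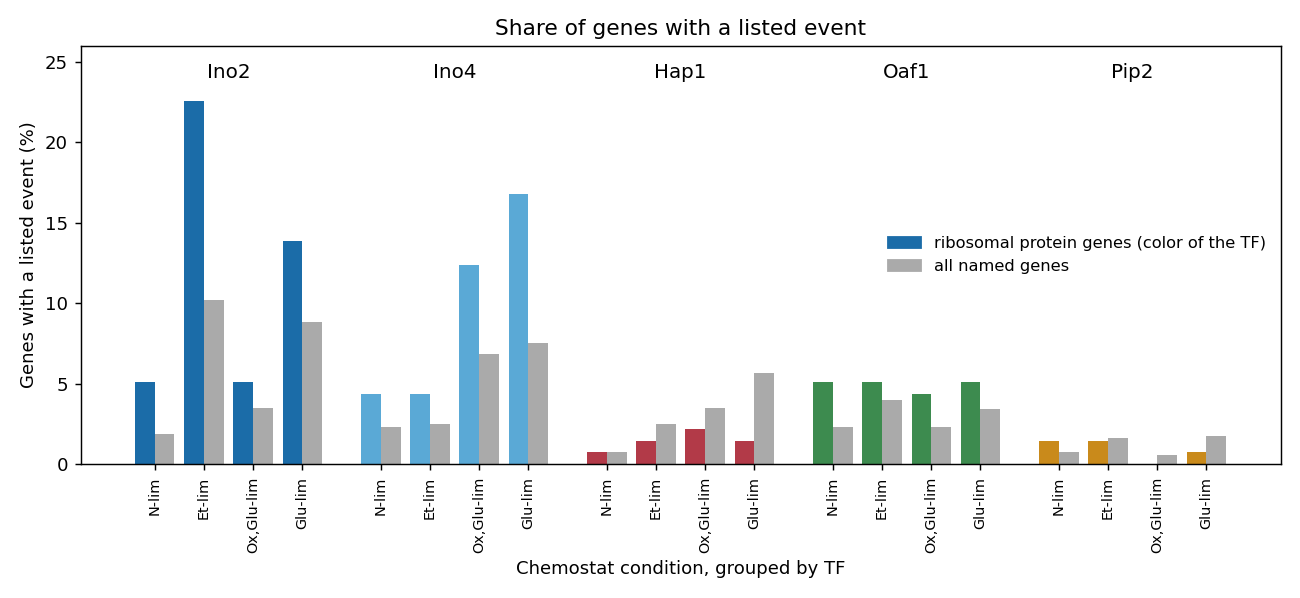
Bars give the percentage of genes with a listed event for each TF and condition, for the 137 ribosomal protein genes (left bar, color of the TF) and for all 7124 named genes (right bar, gray). The left bar is the taller in all 4 conditions for Ino2, Ino4, and Oaf1, most of all for Ino2 at Et-lim with 22.6% beside 10.2%, and in none for Hap1.

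Most events of the ribosomal protein genes were low. Their median log2(S/N) over 156 entries was 1.99, against 2.63 over all 5173 entries of named genes, and 77 entries (49.4%) were above 2, against 68.8% of the entries of other genes. For Ino2 at Et-lim the median over 31 ribosomal protein genes was 1.59, against 2.34 over all listed genes. For Ino2 at Glu-lim it was 2.12, against 2.22. For Ino4 at Glu-lim it was 1.98, against 2.50, and at Ox,Glu-lim 1.80, against 2.24. The 6 genes of Ino4 at Et-lim stood at the level of all genes, with a median of 4.68 for both. All 8 Hap1 entries lay below the median of all genes listed in their condition, also the highest, RPS7A at Et-lim (3.08, against 3.54). Over all conditions the median was 1.93, against 2.75, for Oaf1 and 2.16, against 2.46, for Pip2. Counted per gene, the median of Oaf1 at Et-lim was 2.85, against 2.75, but this rests on 1 event listed for both RPL13B and RPS16A. With each event counted once it was 2.0 over 6 events, against 2.79 over all Oaf1 events of that condition.

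**Figure D2:**
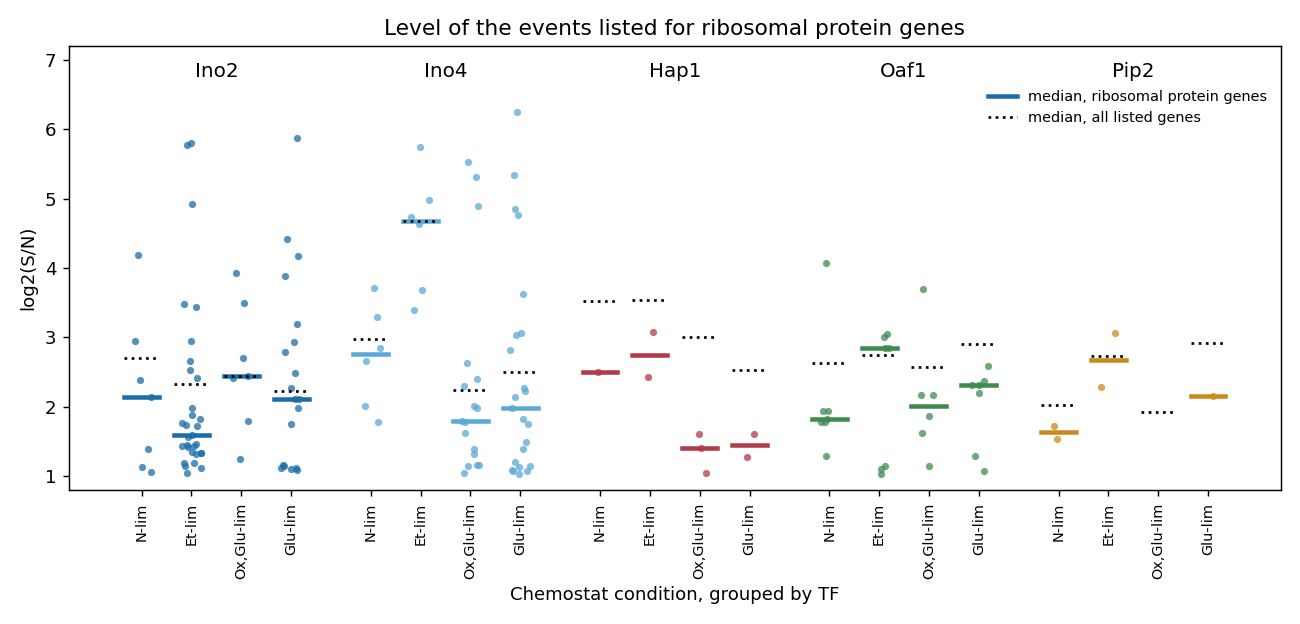
Each point is the log2(S/N) of 1 ribosomal protein gene for 1 TF and condition. Solid lines are the median of these points and dotted lines the median of all listed genes; most points lie between 1 and 3, and the highest, 6.25, is RPL33B for Ino4 at Glu-lim.

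The high values came from few genes. Only 6 ribosomal protein genes had an entry above 4, namely RPL33B, RPL6B, RPS3, RPL35B, RPL24B, and RPS26B, and the first 3 had one above 5. Of the entries of ribosomal protein genes, 12.2% were above 4, against 23.1% of the entries of other genes. Above 5 were 5.13%, against 11.9%. RPL33B encodes protein eL33 of the large subunit. Its Ino2 values were 2.95 under N-lim, 5.77 under Et-lim, 3.50 under Ox,Glu-lim, and 5.87 under Glu-lim, all at position 779582 of chromosome XV, 177 bp upstream of the start codon. Its Ino4 values were 3.72 under N-lim, 5.74 under Et-lim, 5.31 under Ox,Glu-lim, and 6.25 under Glu-lim. Both TFs had their lowest value at N-lim. At N-lim the Ino4 event lay at 779684, which is 102 bp from the Ino2 event, and under the other conditions the events of the TFs lay 18, 1, and 0 bp apart. The same events are listed for the divergent IRC13, 288 bp from the Ino2 position. RPL33B is the nearer gene for all of them except Ino4 at N-lim, where IRC13 is nearer (186 bp, against 279 bp).

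RPL6B, which encodes protein eL6 of the large subunit, had no event at N-lim. Its Ino2 values were 5.80 under Et-lim, 2.71 under Ox,Glu-lim, and 4.18 under Glu-lim, and its Ino4 values 4.64 under Et-lim, 2.40 under Ox,Glu-lim, and 5.35 under Glu-lim. For both TFs the value at Ox,Glu-lim was the lowest of the 3. The Ino2 event stood at 1028538 of chromosome XII under all 3 conditions, 316 bp upstream of RPL6B and 646 bp from the divergent VMA6, a subunit gene of the vacuolar proton pump. RPL35B encodes uL29, which lies near the exit of the peptide tunnel. Its Ino2 values were 3.44 under Et-lim, 1.80 under Ox,Glu-lim, and 2.78 under Glu-lim, and its Ino4 values 4.98 under Et-lim, 1.62 under Ox,Glu-lim, and 3.06 under Glu-lim, again with no event at N-lim and the lowest value at Ox,Glu-lim. No other gene lists these events, which lay 141 to 146 bp upstream of the start codon. The k-mer listed there, TGTGAAA, lacks the CANNTG core to which helix-loop-helix proteins are known to bind.

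RPS3 encodes uS3 of the small subunit, at the channel where mRNA enters. Its Ino2 values were 4.18 under N-lim, 4.92 under Et-lim, 3.93 under Ox,Glu-lim, and 4.42 under Glu-lim, and its Ino4 values 3.30 under N-lim, 4.73 under Et-lim, 5.53 under Ox,Glu-lim, and 4.85 under Glu-lim. All 8 values were above 3, so RPS3 was high under each condition, N-lim included. The events lay far from the gene, 856 to 876 bp upstream, except that of Ino4 at N-lim at 688 bp. All are also listed for YNL179C, an open reading frame that the reference annotation does not hold, at 702 to 890 bp. No annotated start codon is nearer than that of RPS3.

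RPL24B, of the intersubunit bridge protein eL24, had Ino2 values of 1.73 under Et-lim, 2.41 under Ox,Glu-lim, and 3.20 under Glu-lim. Its Ino4 values were 2.66 under N-lim, 4.90 under Ox,Glu-lim, and 4.76 under Glu-lim. The events lay 1040 to 1053 bp upstream of RPL24B and 199 to 212 bp from the divergent YGR149W, which lists the same events. The reference annotation names this neighbor GPC1, and its start codon is the nearest to all of them. RPL3 encodes uL3, next to the peptidyl transferase center. It had Ino2 values of 2.15 under N-lim, 3.49 under Et-lim, and 3.88 under Glu-lim and Ino4 values of 1.78 under Ox,Glu-lim and 1.75 under Glu-lim. These lay 789 to 792 bp upstream of RPL3 and 364 to 367 bp from YOR062C. In both cases the value of 1 event is thus given to a ribosomal protein gene and to a nearer neighbor.

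RPL2A, of uL2 in the peptidyl transferase center, had Ino2 values of 2.95 under Et-lim and 2.11 under Glu-lim and Ino4 values of 2.02 under Ox,Glu-lim and 3.63 under Glu-lim. For the event 176 bp upstream, the noncoding RNA gene RUF23 was nearer, at 120 bp. The paralog RPL2B had 1.09 for Ino2 and 1.03 for Ino4, both at Glu-lim and at 1 position 132 bp upstream. RPL31A, whose protein eL31 lies at the tunnel exit, had 2.53 for Ino2 at Et-lim. Its Ino4 values were 3.39 under Et-lim and 1.39 under Glu-lim. Its paralog RPL31B had 1.74 for Ino2 at Et-lim and 1.08 for Ino4 at Glu-lim. These were the only pairs in which both copies were listed for the same TFs, and in both the A copy had the higher value. RPL16A (uL13) had 1.59 under Et-lim and 1.75 under Glu-lim for Ino2, and 3.03 for Ino4 at Glu-lim.

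The large subunit genes that follow had no Ino2 or Ino4 value above 3. RPL27A had 1.42 for Ino2 at Et-lim, and 2.02 under N-lim and 2.23 under Glu-lim for Ino4. RPL23B had 1.56 for Ino2 at Et-lim and 1.82 for Ino4 at Glu-lim, both at the position 240 bp upstream. RPL21A had Ino2 values of 1.34 under Et-lim, 1.25 under Ox,Glu-lim, and 1.14 under Glu-lim, and 1.09 for Ino4 at Glu-lim. RPL19A, of the bridge protein eL19, had Ino2 values of 1.13 under N-lim, 1.44 under Et-lim, and 1.12 under Glu-lim and 1.14 for Oaf1 at Ox,Glu-lim. RPL36B had 1.45 under Et-lim and 1.16 under Glu-lim for Ino2, at 1 position 142 bp upstream. RPL20A had 1.46 for Ino2 at Et-lim and RPL7A 1.07 for Ino2 at N-lim. For Ino4, RPL17B had 1.98 under Ox,Glu-lim and 1.13 under Glu-lim, and RPL12B 1.39 at Ox,Glu-lim, within the coding sequence of SYF1. RPL12A, whose protein uL11 forms the base of the stalk, had 1.78 for Ino4 at N-lim and 1.1 for Oaf1 at Et-lim. The threshold of the tables is a log2(S/N) of 1, and the lowest of these values stood just above it.

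**Figure D3:**
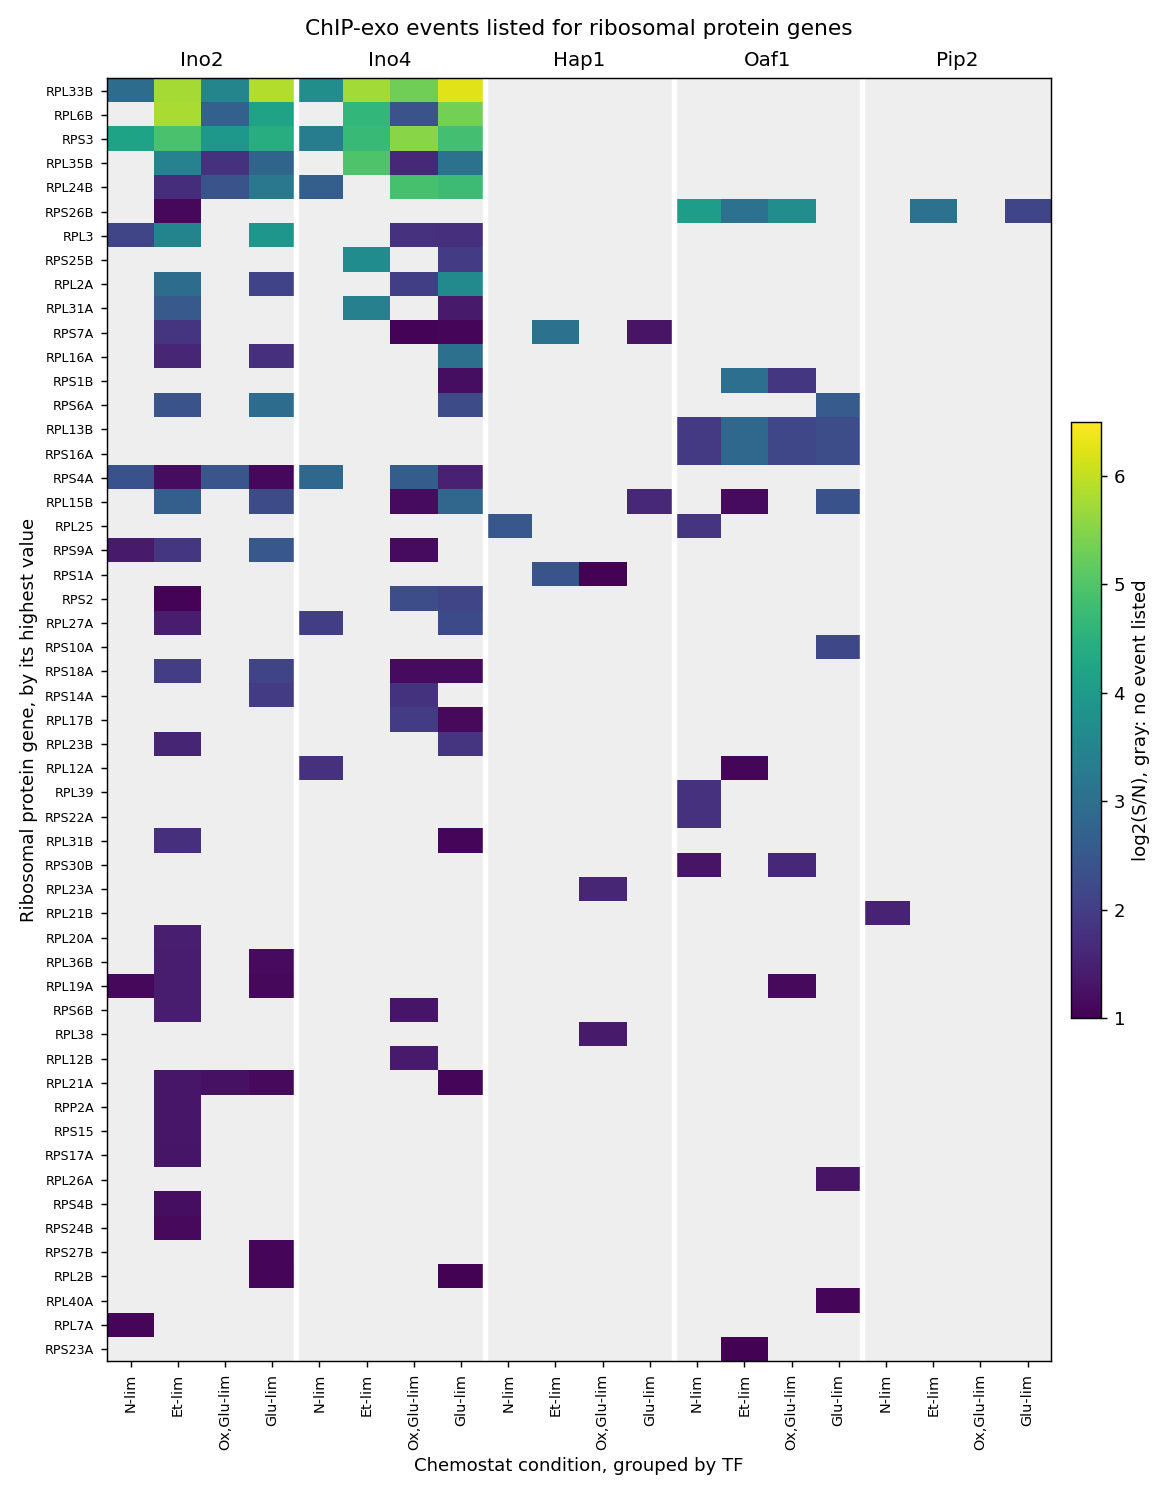
Rows are 53 of the 56 ribosomal protein genes with an event, sorted by their highest value, and columns the 5 TFs with 4 conditions each; color gives log2(S/N), and gray marks no listed event. High values gather in the Ino2 and Ino4 columns of RPL33B, RPL6B, RPS3, RPL35B, and RPL24B, and, for Oaf1, in RPS26B; outside these genes no value is above 4.

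Among small subunit genes, RPS4A was listed in 7 of the 8 Ino2 and Ino4 sets. Its Ino2 values were 2.39 under N-lim, 1.19 under Et-lim, 2.45 under Ox,Glu-lim, and 1.12 under Glu-lim, and its Ino4 values 2.85 under N-lim, 2.63 under Ox,Glu-lim, and 1.5 under Glu-lim. Unlike RPL33B and RPL6B, it had its higher values at N-lim and Ox,Glu-lim. The events lay 724 to 736 bp upstream of RPS4A and 392 to 404 bp from HMS2, which lists the same events. The nearest annotated start codon was that of YJR146W, at 81 to 93 bp, which does not list them. RPS6A, whose protein eS6 is phosphorylated downstream of TOR, had 2.41 under Et-lim and 2.94 under Glu-lim for Ino2, 2.27 for Ino4 at Glu-lim, and 2.59 for Oaf1 at Glu-lim. RPS6B had 1.44 for Ino2 at Et-lim and 1.32 for Ino4 at Ox,Glu-lim. RPS9A, of the mRNA entry protein uS4, had Ino2 values of 1.39 under N-lim, 1.88 under Et-lim, and 2.49 under Glu-lim at 1 position, 473 bp upstream, and 1.15 for Ino4 at Ox,Glu-lim. This place holds the sequence CACATGC, and the divergent MOT1 is nearer at 395 bp. RPS2 (uS5, also at mRNA entry) had 1.05 for Ino2 at Et-lim, and for Ino4 2.29 under Ox,Glu-lim and 2.15 under Glu-lim.

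RPS18A, of uS13 in the head of the subunit, had 1.99 under Et-lim and 2.12 under Glu-lim for Ino2, and 1.16 under Ox,Glu-lim and 1.15 under Glu-lim for Ino4. RPS14A (uS11) had 1.98 for Ino2 at Glu-lim and 1.80 for Ino4 at Ox,Glu-lim. RPS25B (eS25) had just Ino4 events, 3.68 under Et-lim and 1.98 under Glu-lim, 622 to 631 bp upstream. They are also listed for the tRNA gene tE(UUC)L, 648 to 657 bp away. Single Ino2 events were listed for RPS17A (1.32), RPS4B (1.19), and RPS24B (1.14) at Et-lim and for RPS27B (1.1) at Glu-lim. RPS15, of uS19 in the head, and RPP2A, of a stalk protein, share 1 promoter and 1 Ino2 event of 1.33 at Et-lim. RPP2A was the only one of the 5 stalk genes with an event.

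Hap1 events were listed for RPS7A with 3.08 under Et-lim and 1.28 under Glu-lim, for RPS1A with 2.43 under Et-lim and 1.04 under Ox,Glu-lim, and for RPL25 with 2.50 at N-lim. Those of RPS7A lay 978 to 980 bp upstream and 487 to 489 bp from the divergent RKI1, a gene of the pentose phosphate pathway. RPS7A also had 1.82 for Ino2 at Et-lim, and for Ino4 1.05 under Ox,Glu-lim and 1.07 under Glu-lim, at least 249 bp and at most 461 bp upstream. RPL23A (1.60) and RPL38 (1.40) were listed at Ox,Glu-lim. RPL15B was listed at Glu-lim (1.61). RPL25, of uL23 at the tunnel exit, also had 1.83 for Oaf1 at N-lim, 287 bp away from its Hap1 event.

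For Oaf1 the highest values were those of RPS26B, of eS26 at the channel where mRNA leaves, with 4.07 under N-lim, 3.05 under Et-lim, and 3.70 under Ox,Glu-lim. It was also listed for Pip2 with 3.06 under Et-lim and 2.16 under Glu-lim, and for Ino2 with 1.11 at Et-lim. At Et-lim the events of the 3 TFs lay within 12 bp, at 422776, 422779, and 422788 of chromosome V. They are 1156 to 1176 bp upstream of RPS26B and 331 to 351 bp from the divergent YER130C, which lists each of them. RPS1B, of eS1 at the mRNA exit, had 3.01 under Et-lim and 1.87 under Ox,Glu-lim for Oaf1, 180 to 200 bp upstream, and 1.21 for Ino4 at Glu-lim.

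RPL13B and RPS16A start on either side of 1 promoter and share all their Oaf1 events, of 1.93 under N-lim, 2.85 under Et-lim, 2.16 under Ox,Glu-lim, and 2.31 under Glu-lim. The protein of RPS16A, uS9, reaches the tRNA in the P site. The highest event was not at 1 place in the promoter: on chromosome XIII it was at 551644 under N-lim, 551373 under Et-lim, 551645 under Ox,Glu-lim, and 551493 under Glu-lim. RPL39 and RPS22A share 1 Oaf1 event of 1.77 at N-lim. RPL39 encodes a small protein of the tunnel wall. Oaf1 was further listed for RPS30B with 1.29 under N-lim and 1.63 under Ox,Glu-lim, and once each for RPS10A (2.20), RPL26A (1.30), and RPL40A (1.07) at Glu-lim and RPS23A (1.03) at Et-lim. RPL40A encodes a ubiquitin fusion, and the protein of RPS23A, uS12, lies at the decoding center. The event of RPL26A lay 16 bp from the tRNA gene TRR4, and no other entry had a tRNA gene within 200 bp. Pip2 was listed for RPL21B (1.54) at N-lim.

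RPL15B, with 4 TFs, had 2.66 under Et-lim and 2.28 under Glu-lim for Ino2, 1.16 under Ox,Glu-lim and 2.82 under Glu-lim for Ino4, 1.61 for Hap1 at Glu-lim, and 1.15 under Et-lim and 2.38 under Glu-lim for Oaf1. Ino2 and Ino4 shared position 510971 of chromosome XIII at Glu-lim. Hap1 lay 27 bp and Oaf1 147 bp from it under that condition. All of these places are 476 to 624 bp upstream of RPL15B and within YMR122C, an open reading frame between RPL15B and the divergent YMR122W-A.

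Events of ribosomal protein genes lay closer to the start codon than those of other genes. Of the 156 entries, 155 were upstream, at 123 to 1176 bp with a median of 316 bp, against a median of 459 bp for the upstream entries of other protein-coding genes. Within 350 bp upstream lay 56.4% of the entries, against 32.9% for other protein-coding genes. The share was 59.4% against 32.8% for Ino2, 55.8% against 34.7% for Ino4, 62.5% against 36.4% for Hap1, and 59.3% against 29.6% for Oaf1. For Pip2, with 5 entries, it was 0% against 24.6%. Pip2 was thus the only TF with no entry that close to a ribosomal protein gene.

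Many events lay in promoters shared with another gene. Of the 156 entries, 108 (69.2%) were shared with a divergent neighbor and lay between the start codons of both genes, against 51.7% of the entries of other protein-coding genes. In all, 120 (76.9%) were shared with any other gene, against 59.1% of the entries of other protein-coding genes. In 60 entries (38.5%) the other gene was nearer, against 29.0%. For 10 genes every event was nearer to another gene that lists it, among them RPL24B, RPL3, RPP2A, RPS22A, RPS26B, RPS4A, RPS4B, and RPS9A. For 20 genes no event was shared with a divergent neighbor in the annotation, among them RPL35B, RPS3, RPL16A, RPS6A, RPS6B, RPL12A, RPL21A, RPS1A, and RPS25B. In 3 promoters, those of RPL13B and RPS16A, RPL39 and RPS22A, and RPP2A and RPS15, both genes encode ribosomal proteins, so that the 156 entries stand for 150 events.

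**Figure D4:**
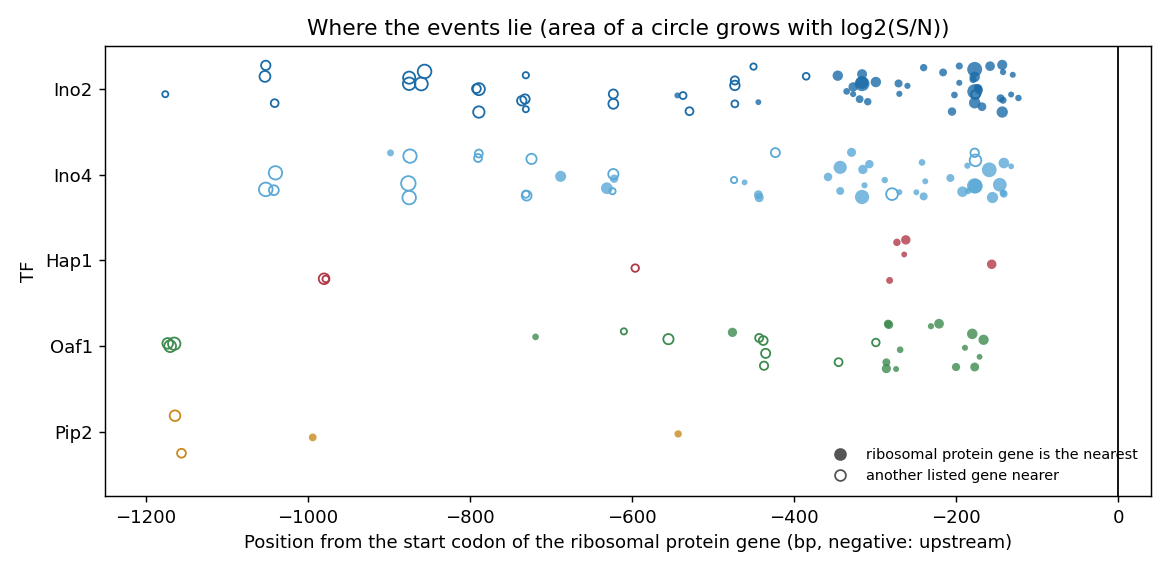
Each circle is 1 entry upstream of a ribosomal protein gene, by its distance from the start codon in bp, with 1 row for each TF and larger circles for higher log2(S/N); open circles are events for which another listed gene is nearer. Filled circles gather within 350 bp of the start codon, and all entries of RPL24B, RPL3, and RPS26B are open circles far from it.

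Ino2 and Ino4 were listed together for 23 ribosomal protein genes, which is 65.7% of those of Ino2 and 82.1% of those of Ino4, against 69.2% and 85.6% over all genes. For 28 entries of 15 genes both were listed under 1 condition, and in 24 of them (85.7%) the events lay within 20 bp, against 80.0% of the 894 such entries of other genes. In 9 the position was the same. The 4 exceptions were RPL33B and RPS3 at N-lim, RPL6B at Et-lim, and RPL16A at Glu-lim. Ino4 had the higher value in 17 of the 28 entries (60.7%), and the median difference, Ino4 minus Ino2, was 0.38, against 65.5% and 0.39 at other genes. By these measures the ribosomal protein genes stood close to the rest of the genes. Among other pairs of TFs, 4 of 14 entries lay within 20 bp, 3 of them on RPS26B and 1 on RPL15B.

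Where a TF was listed under more than 1 condition, the places were compared. Of 41 such cases of a TF on a ribosomal protein gene, 28 (68.3%) had all positions within 20 bp, against 59.0% of 1470 cases at other genes. This held for 12 of 16 Ino2 genes (75.0%), against 71.1% at other genes, for 11 of 16 Ino4 genes (68.8%), against 72.8%, and for 2 of 6 Oaf1 genes (33.3%), against 30.1%. For these 3 TFs the shares were near those of other genes. Since the tables keep just the highest event of a gene, a change of place says that another event was the highest and does not say that the first one was gone.

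Paralogs were compared by whether each copy was listed. The split that the share of listed genes alone would give was not computed. The counts therefore do not show that copies of a pair differ more than unrelated ribosomal protein genes do. Of 57 pairs, 9 had both copies listed, 29 had 1 copy listed, and 19 had neither. In 16 of the 29 it was the A copy and in 13 the B copy. With Ino2 or Ino4 alone, 5 pairs had both copies and 25 had 1 copy. RPL33B, RPL6B, RPL35B, and RPL24B, which are among the genes with the highest values, all had an unlisted A copy. Besides RPL2 and RPL31, both copies were listed for RPL12, RPL21, RPL23, RPS1, RPS4, and RPS6, among others, with sets of TFs that differed between the copies: RPL23A had Hap1 and RPL23B Ino2 and Ino4, and RPS1A had Hap1 and RPS1B Ino4 and Oaf1. The pairs with neither copy included RPL1, RPL4, RPL8, RPL9, RPL11, RPL14, RPL18, RPL22, RPL34, RPL37, RPL41, RPL42, RPL43, RPS0, RPS19, RPS21, RPS28, and RPS29. Of the 23 genes outside these pairs 9 were listed, and RPL5, RPL10, RPL28, RPL29, RPL30, RPL32, RPS12, RPS13, RPS20, RPS31, RPP0, RPP1A, RPP1B, and RPP2B were not.

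The share of listed genes was 29 of 76 for the large subunit (38.2%), 26 of 56 for the small subunit (46.4%), and 1 of 5 for the stalk. The 89 genes with an intron in the coding sequence had events in 42.7% of cases and the 48 without in 37.5%. No test was run on these shares.

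Sequences known for the TFs were searched at the events and in the promoters, on both strands and with exact matches; a match is a description and no proof of a site. CATGTG, the core of the Ino2 and Ino4 element, was found within 20 bp of 7 of 49 Ino2 positions at ribosomal protein genes (14.3%), against 25.5% of all Ino2 positions. For Ino4 it was 7 of 51 (13.7%), against 36.7%. At RPL33B, RPL6B, and RPL2A the Ino4 position differed slightly between conditions, so that 1 copy of CATGTG was counted more than once. The longer CACATGC, which overlaps with it, was found at 1 position for each TF (2.04% and 1.96%), against 13% of all Ino2 positions and 21.3% of all Ino4 positions. The k-mers listed by the peak caller gave the same order: 34.8% of those of Ino2 and 45.5% of those of Ino4 at ribosomal protein genes held CANNTG, against 51.3% and 61.8% over all genes. CCGATA was within 20 bp of 0 of 8 Hap1 positions, against 23.7% of all. CGGNNNTAA was at 5 of 22 Oaf1 positions (22.7%), against 17.1% of all. At Pip2 positions CGGNNNTAA was found at 2 of 5 (40%), against 18.8% of all, and CCGNNNTA at 0 of 5, against 9.14% of all. Both Pip2 positions with CGGNNNTAA were those of RPS26B, and the Oaf1 positions of RPS26B held the same copy of it. The shares for Oaf1 and Pip2 thus count 1 site several times, and YER130C is the nearer gene there.

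In the 500 bp upstream of the start codon, ACCCNNACA, a form of the Rap1 element, was found at 54 of the 137 ribosomal protein genes (39.4%) and at 4.72% of 5849 other protein-coding genes. It was equally frequent at the 56 listed genes (39.3%) and at the 81 unlisted ones (39.5%), and was found at 32.5% of the 40 listed for Ino2 or Ino4. Within 100 bp of an Ino2 or Ino4 position it was found for 13 of 100 positions at ribosomal protein genes (13%), against 3.82% of 1650 positions at other coding genes, and within 20 bp for 1 position of each TF. Whether 13% exceeds what the frequency of the element in these promoters alone would give was not tested. CATGTG was in the 500 bp of 13.9% of the ribosomal protein genes, against 13.1% of other coding genes, and of 17.5% of the 40 that were listed for Ino2 or Ino4. AAAATTTT, an element known from ribosome synthesis genes, was in 12.4% of both groups. CCGNNNTA was in 31.4%, against 34.0% of other coding genes, CGGNNNTAA in 17.5%, against 13.6%, and CCGATA in 7.30%, against 11.1%. Among these sequences, the Rap1 element was the one whose share stood far from that of other genes.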

How the data were processed

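The tables are those of the authors: 1 per TF, with 20 columns each, 100 in all. Reads were placed on the S288C genome (R64), and the submitters' processing notes name Bowtie2, SAMtools, and bedtools, without versions used here. Events were called with GEM. The log2 values were deposited by the authors as log2 of signal over noise, pooled over duplicates, for the highest event of a gene and condition when above 1. For Pip2 the same log2 of signal over noise is treated as a score, as deposited by the authors, because lines of genes with no event stop short of that column; its values were not changed. Depth is unknown, and the largest listed distance was 1199 bp. Entries that name no gene (5) were left out.

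Of the 7124 names, 6163 matched the R64 annotation (5986 protein-coding) and 961 did not. Distances to start codons, neighbors, and sequences were computed from positions with Python 3.11.15, pandas 2.3.3, NumPy 2.4.6, and matplotlib 3.10.9. The motif search was tested on simulated data. An event counted as shared when another gene listed it for the same TF and condition, and places within 20 bp counted as 1 place. Every ribosomal protein gene with an event was named, except a few that are counted but not reported here, with values for each condition where it had events of at least 2 TFs, events of 1 TF in 3 or more conditions, or 1 of the 10 highest values, and sequences were limited to 8. From each other list at most 4 genes with the highest values were named. The members and the gene lists were chosen with earlier results of these data known. Without replicate values no test was run. Alternatives varied the threshold, the distance, the assignment to the nearest gene, the removal of shared events, and the windows of the motif search.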

Additional observations from a re-analysis of the deposited data

How the results depend on the processing

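The counts of ribosomal protein genes with an event depended most on the threshold and on the treatment of divergent promoters. With log2(S/N) above 1.5 the count of Ino2 was 19 in place of 35, which is 13.9%, against 8.96% of all genes. Above 2 the count over all TFs was 26 in place of 56, with Ino2 on 13, Ino4 on 14, Hap1 on 3, Oaf1 on 7, and Pip2 on 2. At that threshold the share for Ino2 was 9.49%, against 6.85% of all genes, and that for Oaf1 5.11%, against 4.63%, so that both shares stood closer to those of all genes than at the deposited threshold. The share for Ino4 was 10.2%, against 5.94% of all genes. For Hap1 it was 2.19%, against 4.66%, and for Pip2 1.46%, against 1.9%. Without events shared with a divergent neighbor 22 genes remained over all TFs, among which Ino2 had 12, Ino4 11, Hap1 2, and Oaf1 3. The share of all genes was not computed in that way, so these counts cannot be set against a background. For Pip2 the count was 2 in place of 4 with a distance of 600 bp or less (1.46%, against 2.22% of all genes). It was also 2 when an event counted for the nearest listed gene alone (1.46%, against 2.19%). CCGATA was at 1 of the Hap1 positions within 50 bp and at 0 within 20 bp. Of 56 alternative values, 41 stayed within 1.5 times the main value and 15 did not. Leaving out a replicate was not run, since duplicates are pooled. No paired analysis was possible because the tables hold 1 pooled value for each TF and condition. Depth is unknown, so an unlisted gene may have an event below the threshold.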

Other observations

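Other gene groups of translation were listed at shares both above and below the 19.2% of all named genes. Of 33 translation factor genes 9 (27.3%) had an event. The highest were Hap1 events of HYP2 (8.90 at Glu-lim) and ANB1 (6.54 at Et-lim), the paired genes of eIF5A, which are also listed for ANP1 and CYC1, followed by Ino4 events at Glu-lim of EFB1 (4.00), of elongation factor 1B, and EFT2 (3.92), of elongation factor 2, which are also listed for SSA1 and ATO3. Of 16 regulators of ribosomal protein genes and ribosome synthesis 4 (25.0%) were listed: DOT6 (3.82, Ino2 at Et-lim), YAK1 (3.46, Ino4 at N-lim), STB3 (2.41, Ino4 at Ox,Glu-lim), and TOD6 (2.25, Ino4 at Ox,Glu-lim). The event of DOT6 is also listed for YER088W-B and that of YAK1 for RPB4, and that of TOD6 lay 989 bp from the start codon. Of 11 RNA polymerase I genes 3 (27.3%) were listed, the highest RRN11 for Pip2 at Glu-lim (3.92), an event also listed for CAT2. Among 66 genes of mitochondrial ribosomal proteins 8 (12.1%) had an event, led by MRP4 (4.87, Ino4 at Et-lim) and RSM7 (4.27, Oaf1 at Et-lim), whose events are also listed for STE20 and YJR115W. Of 37 ribosome synthesis factors only NOG1 (2.7%) was listed, with 4.5 for Oaf1 at Ox,Glu-lim and 1199 bp from the start codon. Of 13 genes grouped as chaperones of ribosomal proteins or of newly made proteins at the ribosome, only EGD1 (7.69%) was listed. It had 4.5 for Ino2 at Et-lim, an event also listed for PMA2.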
